A study of Homo sapiens with 4 samples.

Results

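The IFIT genes encode the interferon-induced proteins with tetratricopeptide repeats, a family of cytoplasmic proteins that bind RNA. The members described are IFIT1, IFIT2, IFIT3 and IFIT5, taken by gene symbol as 4 of the 40205 symbols of the deposited count table. They were chosen by their CPM (counts scaled to library size, with sizes adjusted by the trimmed mean of M-values, TMM) in these same knockdown and control libraries, so their levels and fold changes are given as a description and were not tested. The libraries came from A549, an established human lung adenocarcinoma line, and RNA was taken 24 h after small interfering RNA (siRNA) had been delivered with a lipid reagent. In 2 libraries, Knockdown-670 and Knockdown-732, the siRNA targeted the long non-coding RNA SBF2-AS1, and in 2 others, NC-1 and NC-2, it was a negative control. All 4 libraries were therefore transfected, and no untransfected cells were analysed here. The labels do not say what the numbers in the knockdown names mean, whether they mark different siRNA sequences, or whether replicates came from separate cultures, so any p-value reflects just the variation among these 4 libraries, which may be technical.

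IFIT genes are kept low in most resting cells and are transcribed when a viral RNA sensor or an interferon receptor activates factors of the IRF family or the complex ISGF3, which includes STAT2 and IRF9. The proteins distinguish foreign from cellular RNA by its end. IFIT1 holds capped RNA that lacks the ribose methyl mark of cellular messages and keeps it from the translation initiation machinery. IFIT3 binds IFIT1 and strengthens its hold on RNA, IFIT2 joins the same complexes and prefers AU-rich duplex RNA, and IFIT5 acts alone and binds RNA with an uncapped triphosphate end. IFIT1B is a further family gene at the same locus.

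The promoters are shown because the members moved in one direction and the sequence was not used to choose them. RefSeq promoter sequences on GRCh38.p14 (250 bases before the annotated start and 50 from it onward) were matched by symbol for IFIT1, IFIT3 and IFIT5, 3 of the 4 members, and for IFIT1B. All lie on the + strand of chromosome 10, and the first of the 2 annotated IFIT3 starts is printed. The capitals mark every match, on either strand, to GAAA, any 2 bases and GAAA again, the core letters of the interferon-stimulated response element. Each match here reads on the opposite strand, so the printed strand shows its complement.
IFIT1, chr10:89392373-89392672: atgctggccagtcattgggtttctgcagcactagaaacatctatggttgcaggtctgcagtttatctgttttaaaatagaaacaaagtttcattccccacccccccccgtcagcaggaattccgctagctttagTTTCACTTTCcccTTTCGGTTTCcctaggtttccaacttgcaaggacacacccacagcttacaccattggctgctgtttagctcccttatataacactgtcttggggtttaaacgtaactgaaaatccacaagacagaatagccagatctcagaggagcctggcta
IFIT3, chr10:89327747-89328046: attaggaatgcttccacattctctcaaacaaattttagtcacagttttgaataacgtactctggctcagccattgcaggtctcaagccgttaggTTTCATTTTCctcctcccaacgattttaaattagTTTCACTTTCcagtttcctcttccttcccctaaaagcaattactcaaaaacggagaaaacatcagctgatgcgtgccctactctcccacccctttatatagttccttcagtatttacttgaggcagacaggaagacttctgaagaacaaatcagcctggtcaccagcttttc
IFIT5, chr10:89414318-89414617: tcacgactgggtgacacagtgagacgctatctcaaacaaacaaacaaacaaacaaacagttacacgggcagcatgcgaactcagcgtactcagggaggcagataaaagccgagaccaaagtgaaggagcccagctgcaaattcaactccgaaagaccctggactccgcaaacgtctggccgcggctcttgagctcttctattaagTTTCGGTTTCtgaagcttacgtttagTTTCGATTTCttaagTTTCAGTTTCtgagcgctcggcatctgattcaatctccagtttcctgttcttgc
IFIT1B, chr10:89377806-89378105: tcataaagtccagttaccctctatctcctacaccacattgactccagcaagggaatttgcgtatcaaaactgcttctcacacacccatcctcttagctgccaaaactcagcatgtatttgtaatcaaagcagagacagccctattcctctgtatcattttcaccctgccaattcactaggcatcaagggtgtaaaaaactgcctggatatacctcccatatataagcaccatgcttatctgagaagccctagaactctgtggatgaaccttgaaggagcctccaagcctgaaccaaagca

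The motif stood 2 times in the IFIT1 promoter, with first bases 116 and 103 bases before the start. It stood 2 times before each IFIT3 start. In the IFIT5 promoter it stood 3 times, closer to the start than in IFIT1, with first bases 45, 19 and 4 bases before it. The IFIT1B promoter held 0. Of the 35116 promoters in the RefSeq table, 3.57% held the motif at least once, 0.259% at least 2 times and 0.0370% at least 3 times. The exact TATAAA letters, sought on either strand, were in 1 of the 5 family promoters, the first IFIT3 start, and in 11.5% of all promoters. In the IFIT3 promoter they read on the opposite strand, printed as TTTATA, and variants of these letters were not sought. A match to these letters is a description of the window and does not show binding.

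**Figure D1:**
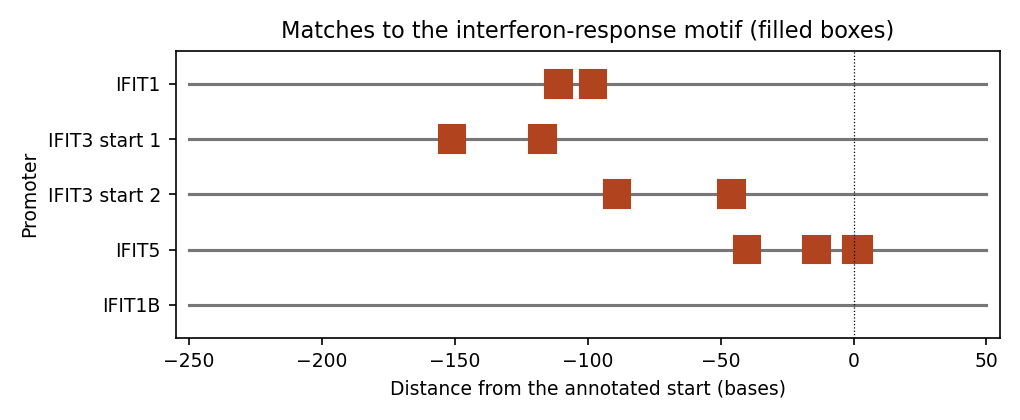
Positions of the interferon-response motif in 5 promoters of the IFIT family. Each line is 1 promoter, the horizontal axis is the distance from the annotated start in bases, and filled boxes are matches on either strand; IFIT5 holds 3 matches near its start, IFIT1 and each IFIT3 start hold 2, and IFIT1B holds 0.

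The libraries held 12149767 and 12894529 counts in the knockdown and 12701132 and 12938143 counts in NC. SBF2-AS1, the targeted transcript, had 15 and 18 counts in Knockdown-670 and Knockdown-732, against 57 and 79 in NC-1 and NC-2, and was lower by 1.94 on the log2 scale (log2 fold change -1.94, SE 0.30, edgeR adjusted p = 3.19e-05). All 9 epithelial and A549 markers were above 1 CPM in at least 1 library, and CDKN2A, which A549 cells lack, had 0 counts in all 4. Of the 8 immune markers CD3E and HLA-DRA had 0 counts in all libraries, PTPRC had at most 1, and the summed level was 15.4 and 15.1 CPM in the knockdown and 18.3 and 14.7 CPM in NC, nearly all of it from CD14 and ITGAM. The summed epithelial level was 8918 and 8747 CPM in the knockdown and 14360 and 13930 CPM in NC, and its part in the results was not tested.

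All 4 IFIT genes were higher in both knockdown libraries than in either NC library. By the separate measure of an adjusted p under 0.05 all 4 were called higher, as were 23.5% of all 16120 genes tested. Nothing is read from either count of members since the same values chose them. IFIT1 reached 141 CPM in Knockdown-670 and 148 CPM in Knockdown-732, against 5.34 CPM in NC-1 and 4.31 CPM in NC-2. These rest on 1662 and 1883 counts in the knockdown and 69 and 57 in NC, and the groups stand far apart. The mean was 145 ± 5.12 CPM in the knockdown and 4.82 ± 0.726 CPM in NC (SD, n = 2 each), and the mean ratio was 30.02. The fitted log2 fold change was 4.91 (SE 0.11). The lowest ratio between any knockdown and any NC library was 26.5 and the highest 34.4. In bulk RNA a larger share of cells that express a gene and more RNA per expressing cell cannot be told apart.

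IFIT2, which takes part in the same complexes and is also known to promote cell death, had 62.5 and 61.9 CPM in Knockdown-670 and Knockdown-732, against 4.02 and 4.08 CPM in NC-1 and NC-2. Within each group the replicates almost coincided, and the groups were far apart. Its counts were 736 and 785 in the knockdown and 52 and 54 in NC, and its log2 fold change was 3.94 (SE 0.13), or 15.3-fold. IFIT3, the partner that stabilises IFIT1 on RNA, had 93.1 and 94.2 CPM in Knockdown-670 and Knockdown-732, against 6.19 and 7.71 CPM in NC-1 and NC-2. The log2 fold change of IFIT3 was 3.75 (SE 0.11), or 13.5-fold, from 1097 and 1195 counts in the knockdown and 80 and 102 in NC. Ratios between single knockdown and NC libraries ran from 15.2 to 15.5 for IFIT2 and from 12.1 to 15.2 for IFIT3.

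IFIT5, the member that binds RNA as a single protein, moved far less. It had 31.8 CPM in Knockdown-670 and 38.7 CPM in Knockdown-732, against 19.0 CPM in NC-1 and 18.4 CPM in NC-2, from 375 and 491 counts in the knockdown and 246 and 243 in NC. The groups did not overlap, but the knockdown libraries lay apart from each other as well. The log2 fold change was 0.92 (SE 0.12), or 1.89-fold, with library pairs from 1.67 to 2.11. IFIT5 was also the only member whose knockdown libraries differed by more than counting error, with Knockdown-732 at 1.22 times Knockdown-670 (exact binomial 95% interval 1.06 to 1.39). The same ratio was 1.05 for IFIT1 (0.984 to 1.12), 0.990 for IFIT2 (0.894 to 1.10) and 1.01 for IFIT3 (0.931 to 1.10). These intervals cover counting error only, and with 1 library on each side the ratio was not tested.

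**Figure D2:**
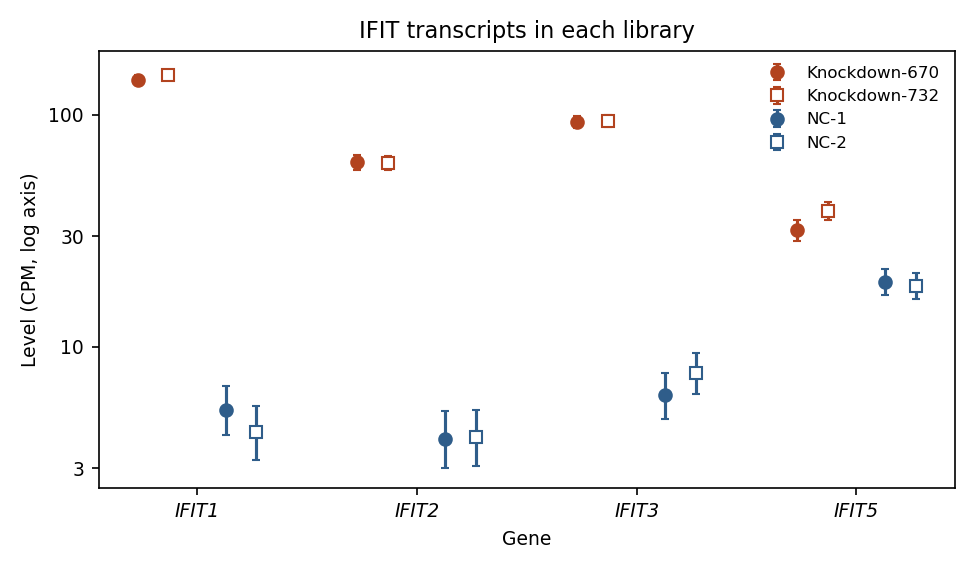
Level of each IFIT gene in each library, in TMM-scaled CPM on a log axis, with Knockdown-670 and Knockdown-732 left of NC-1 and NC-2 for every gene; bars span the exact Poisson 95% interval of the count (counting error alone). IFIT1 stands at 141 and 148 CPM in the knockdown and at 5.34 and 4.31 CPM in NC, while IFIT5 stands at 31.8 and 38.7 CPM in the knockdown and at 19.0 and 18.4 CPM in NC.

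The fifth family gene, IFIT1B, had 2 counts in Knockdown-670, 0 in Knockdown-732 and 0 in each NC library, too few to be tested. The exact Poisson 95% interval of a count of 0 reaches 0.291 CPM in Knockdown-732, 0.285 CPM in NC-1 and 0.279 CPM in NC-2. The pseudogene IFIT6P, between IFIT3 and IFIT1B, had 0 counts in all 4 libraries. Of the 4612 distinct stretches of 50 bases in annotated IFIT1 transcripts, 38 also occur in IFIT1B, and no such stretch was shared between any pair of IFIT1, IFIT2, IFIT3 and IFIT5. Stretches shared with any other gene made up 1.02% of IFIT1, 7.91% of IFIT2, 3.64% of IFIT3 and 0% of IFIT5. Of the 324 shared IFIT2 stretches, most lie in AL353751.1, an overlapping gene that the count table does not list by that name.

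In the knockdown the 4 genes together took 329 and 343 CPM, against 34.6 and 34.5 CPM in NC, 9.73-fold in the means. Their make-up also differed. Levels of different genes were set side by side only per kilobase of annotated exon (GENCODE 29 on GRCh38). In the knockdown the order of level per kilobase was IFIT3 (35.5 ± 0.271 CPM per kilobase), IFIT1 (31.4 ± 1.11), IFIT2 (15.2 ± 0.111) and IFIT5 (8.78 ± 1.21), each SD over n = 2 libraries, with no overlap between neighbours. In NC it was IFIT5 (4.66 ± 0.115), IFIT3 (2.63 ± 0.408), IFIT1 (1.05 ± 0.157) and IFIT2 (0.988 ± 0.0105), again over n = 2, and the last pair overlapped. IFIT5 thus had the lowest level per kilobase of the 4 members in the knockdown and the highest in NC.

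By share of the summed level per kilobase, IFIT5 made up 8.91% and 10.4% in Knockdown-670 and Knockdown-732, against 51.4% and 48.5% in NC-1 and NC-2. IFIT1 made up 34.4% and 34.8% in the knockdown, against 12.6% and 9.91% in NC. The share of IFIT3 was 39.6% and 38.5% in the knockdown and 25.4% and 30.99% in NC, and that of IFIT2 was 17.1% and 16.3% in the knockdown and 10.6% in both NC libraries. The place of IFIT1 depends on its length: its annotated transcripts are 1880 and 4613 bases long, and the counts do not say which was made. With the length of the transcript that GENCODE numbers first for each gene, a choice made after seeing the data, IFIT1 had 77.0 CPM per kilobase in the knockdown and 2.57 in NC, above IFIT3 in the knockdown at 38.1, and made up 54.1% and 54.6% of the knockdown pool. With this length too IFIT5 was the lowest member in the knockdown and the highest in NC.

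**Figure D3:**
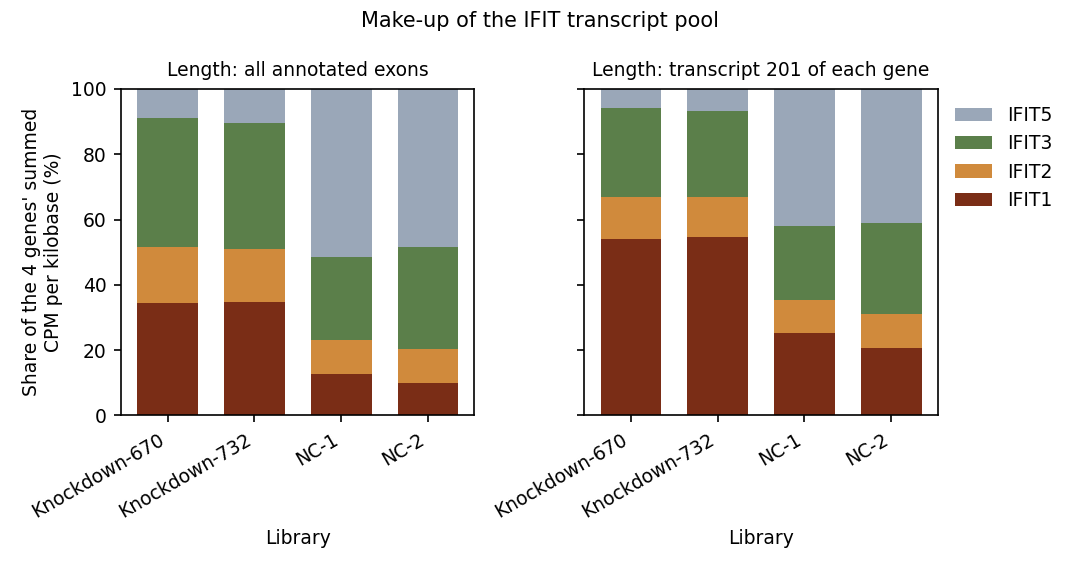
Share of each IFIT gene in the summed CPM per kilobase of the 4 genes, in percent, for Knockdown-670, Knockdown-732, NC-1 and NC-2; the left panel uses all annotated exons as length and the right panel the transcript numbered first for each gene. IFIT5 takes 8.91% and 10.4% of the knockdown pools and 51.4% and 48.5% of the NC pools in the left panel, and IFIT1 is the gene whose share depends most on the length used.

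Over the whole table edgeR called 7463 of 16120 genes (46.3%) at an adjusted p of 0.05, of which those higher in the knockdown were 23.5% of all tested and those lower 22.8%. The balance depended on the scaling, with 3243 higher and 4265 lower genes by library size alone, and DESeq2 called 2719 higher and 2592 lower. All 4 members were among those higher, which the choice of members fixes. In the order of log2 fold change IFIT1 was second of 16120 genes, IFIT2 18th, IFIT3 20th and IFIT5 1153rd. A log2 fold change of at least 3 was seen for 36 genes (0.223%), 3 of them IFIT members, and one of at least 0.5 for 2960 genes (18.4%). Next to IFIT1 stood MAF (4.94, SE 0.82) and CCND2 (4.87, SE 0.84), transcripts below 2 CPM in every library. Next to IFIT2 stood IFI44L above and IFI6 below, and next to IFIT3 stood IFI6 above and IFI44 (3.70) below, all interferon-induced genes. IFIT5 stood between the zinc-finger gene ZNF587 and the sialyltransferase gene ST6GALNAC6, both at 0.92.

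**Figure D4:**
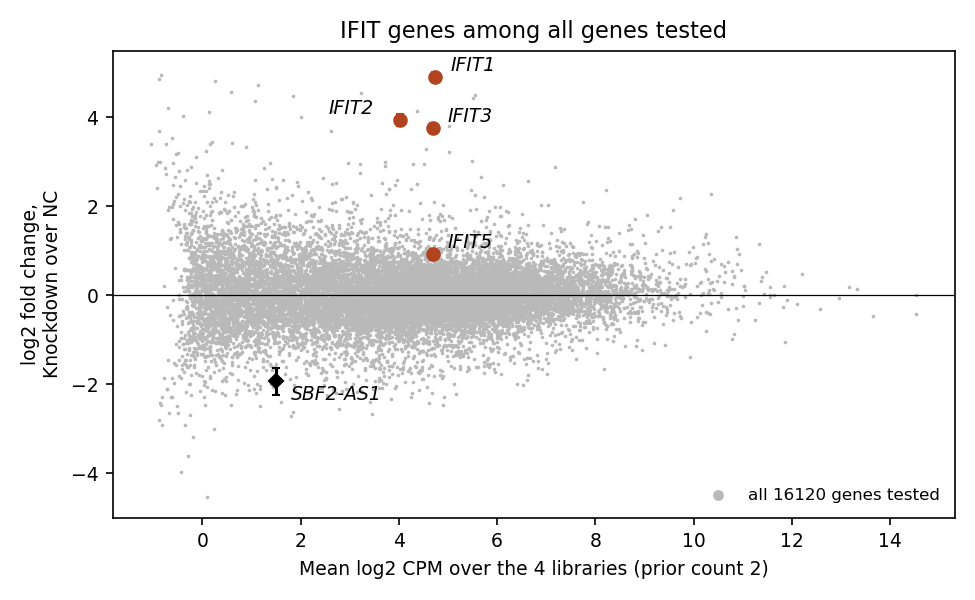
log2 fold change, Knockdown over NC, against mean log2 CPM over the 4 libraries for all 16120 genes tested (grey points), with the IFIT genes as filled circles and SBF2-AS1 as a diamond; bars are the SE of the fit. IFIT1, IFIT2 and IFIT3 lie at 4.91, 3.94 and 3.75, far above the main cloud of genes, and IFIT5 lies at 0.92, near its upper edge.

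The genes whose profile over the 4 libraries was most like that of each member were sought among 11905 tested genes averaging 5 CPM or more, by Euclidean distance between centred log2 CPM values. For IFIT1 they were the antiviral GTPase MX1 (distance 0.410), the ubiquitin-like modifier ISG15 (0.508), OAS2 (0.615), OASL (0.802) and IFIT2 (1.01). For IFIT2 they were OASL (0.249), IFIT3 (0.259), IFI44L (0.275), IFI44 (0.342) and IFI6 (0.388). For IFIT3 they were IFI44L (0.107), IFI44 (0.245), IFIT2 (0.259), IFI27 (0.409) and OASL (0.494). For IFIT5 they were SEC24A (0.0563), a coat protein of vesicles leaving the endoplasmic reticulum, CPEB1 (0.0689), ZNF469 (0.0755), CALCOCO1 (0.0835) and MAPKBP1 (0.0915). IFIT5 lay 2.84 to 3.97 from the other members, and IFIT2 and IFIT3 were the closest pair of members. The size of the fold change enters this distance, and the measure rests on 4 libraries in 2 groups.

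The 5 family genes share 1 cluster of 137 kb on the + strand of chromosome 10 (89283694 to 89421001 on GRCh38, GENCODE 29), in the order IFIT2, IFIT3, IFIT1B, IFIT1 and IFIT5. IFIT2 runs from 89283694 to 89309276, IFIT3 from 89327894 to 89340971, IFIT1 from 89392546 to 89406486 and IFIT5 from 89414586 to 89421001. Each is a protein-coding gene, with 3 annotated transcripts for IFIT2, 2 for IFIT3, 2 for IFIT1 and 1 for IFIT5. Of 20 table genes besides the members that start within 500 kb of the cluster, 11 had a count and 7 were tested, of which 3 were higher, 2 lower and 2 did not pass. Over all genes tested 23.5% were higher and 22.8% lower, with a median log2 fold change of -0.002. With 7 genes tested at the locus, nothing is read from these counts.

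LIPA, which encodes the lysosomal acid lipase, lies on the opposite strand and is annotated from 89213569 to 89414557, across IFIT2, IFIT3, IFIT1B and IFIT1. LIPA had 108 and 113 CPM in the knockdown, against 62.6 and 62.3 CPM in NC (log2 fold change 0.83, SE 0.08, edgeR adjusted p = 6.32e-08). Its exons overlap those of IFIT2 over 65 bases, 1.59% of the IFIT2 exons, and since the use of strand in counting is unknown, reads there cannot be assigned. Beyond IFIT5 and PANK1, the kinesin gene KIF20B was lower, with 13.1 and 15.7 CPM in the knockdown and 33.5 and 35.5 CPM in NC (log2 fold change -1.26, SE 0.13, edgeR adjusted p = 2.11e-07). The death receptor FAS (0.49), the actin gene ACTA2 (0.44) and the deubiquitinase STAMBPL1 (-0.38) also passed, with edgeR adjusted p of 0.00979, 0.00902 and 0.028. Each of these 3 calls was lost in DESeq2 and when a single library was left out (NC-2 for FAS, NC-1 for ACTA2, and NC-1 or Knockdown-670 for STAMBPL1). CH25H, an interferon-induced cholesterol hydroxylase beside LIPA, had 1 and 0 counts in the knockdown and 0 and 1 in NC.

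Genes that act before IFIT transcription were described by lists chosen with earlier results of these data known. Of 22 interferon ligand genes, 16 had 0 counts in every library, and IFNE alone was abundant enough to be tested, with 1.53 and 1.73 CPM in the knockdown and 1.55 and 1.97 CPM in NC (log2 fold change -0.10, SE 0.36, edgeR adjusted p = 0.834). IFNB1, the first interferon made by most infected cells, had 2 and 4 counts in Knockdown-670 and Knockdown-732 and 0 in both NC libraries. IFNL1 had 3 and 2 counts in the knockdown and 2 and 0 in NC, and IFNL2 had 3 and 2 in the knockdown and 0 in both NC libraries. IFNL3 had 2 and 1 counts in the knockdown and 0 in both NC libraries, and IFNL4 had 1 and 0 in the knockdown and 0 in both NC libraries. The 21 ligand genes too low to be tested summed to 11 and 9 counts in Knockdown-670 and Knockdown-732, against 2 and 0 in NC-1 and NC-2. The 5 of these genes with a count rest on at most 4 counts each in a library, and single libraries tied for IFNL1 and IFNL4. IFNB1, IFNL2, IFNL3 and IFNL4 had counts in the knockdown alone. Keeping genes with a count therefore fixed their direction, and nothing is read from it. With no filter on low counts none of the 5 passed, and IFNB1 had an edgeR adjusted p of 0.11.

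Of 14 tested genes of the relay that senses foreign RNA and DNA, 9 were higher, 1 was lower and 4 did not pass, with a median log2 fold change of 0.72. Over all genes tested 23.5% were higher and 22.8% lower, with a median of -0.002. The RNA sensors DDX58 (RIG-I) and IFIH1 (MDA5) had log2 fold changes of 2.66 (SE 0.09) and 2.94 (SE 0.12). DDX58 had 123 and 133 CPM in the knockdown, against 20.5 and 20.2 CPM in NC. IRF7, the factor that amplifies interferon transcription and can bind IFIT promoters, had 63.4 and 62.5 CPM in the knockdown, against 8.89 and 7.41 CPM in NC (log2 fold change 2.95, SE 0.12). MAVS, the mitochondrial adaptor of the RNA sensors, was at 0.78 (SE 0.08). IRF3 and its kinase TBK1 did not pass, at -0.14 and -0.19 (edgeR adjusted p = 0.155 and 0.171). The 1 lower gene was the DNA sensor MB21D1 (cGAS), at -0.70 (edgeR adjusted p = 0.00748), a call lost without NC-2 (0.0611) and in DESeq2 (0.0728).

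Of 14 receptor and ISGF3 genes, 9 were higher, 3 were lower and 2 did not pass, with a median of 0.43. Among all genes tested 23.5% were higher and 22.8% lower, so the share of lower genes was near that background. STAT2 and IRF9, which carry the receptor signal to the response element, rose by 1.99 (SE 0.08) and 1.18 (SE 0.11) on the log2 scale. STAT2 had 124 and 122 CPM in the knockdown, against 29.3 and 32.6 CPM in NC. IFNAR2, a chain of the type I interferon receptor, rose by 0.64. IFNAR1, the other chain, passed at 0.29, a call lost in DESeq2, with library size alone and without Knockdown-732 or NC-1. The 3 lower genes were IFNGR1 (-0.41), JAK2 (-0.64) and the repressor IRF2 (-0.79). The related genes IFNGR2 (0.65) and JAK1 (0.46) were among the 9 higher. The JAK2 call was lost without Knockdown-670 (-0.43, edgeR adjusted p = 0.0636). Among 7 tested inhibitors of the signal 4 were higher and 1, the phosphatase PTPN2 (-0.67), was lower, with a median of 0.21. Of the higher ones TRIM21 was at 1.49, the ISG15 protease USP18 at 0.81, SOCS3 at 0.68 and PTPN11 at 0.21, and the PTPN11 call was lost with library size alone and when NC-1 or either knockdown library was left out.

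IFIT proteins act on RNA ends and on translation initiation, so the genes of both were described. Of 16 genes that make, bind or remove caps, 1 was higher, 4 were lower and 11 did not pass, with a median log2 fold change of -0.11. The share of lower genes was near the 22.8% of all genes tested. CMTR1, the enzyme that adds the ribose methyl mark that keeps IFIT1 off cellular messages, had 65.5 and 58.9 CPM in the knockdown and 56.8 and 60.4 CPM in NC (log2 fold change 0.08, SE 0.09, edgeR adjusted p = 0.443), so its groups overlapped. The guanine methyltransferase RNMT was the 1 higher gene, at 0.42 (SE 0.08). The lower genes were the decapping activator DCP1A (-0.66), the nuclear cap-binding subunit NCBP1 (-0.44), the exonuclease XRN2 (-0.41) and the cap adenosine methyltransferase PCIF1 (-0.34).

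Of 12 cap-binding initiation factors and their regulators, 1 was higher and 4 were lower, with a median of -0.02. Among all genes tested 23.5% were higher and 22.8% lower. The higher gene was EIF4EBP2 (0.86, SE 0.08). The lower genes were EIF4G2 (-0.50), EIF4EBP1 (-0.30), EIF4G3 (-0.30) and EIF4A1 (-0.28). The EIF4EBP1 call was lost without NC-2 (-0.21, edgeR adjusted p = 0.0523). EIF4E, the cap-binding protein that IFIT1 competes with, had 7.64 and 9.22 CPM in the knockdown and 10.4 and 9.37 CPM in NC (edgeR adjusted p = 0.289). Of the 13 subunits of eIF3, the initiation factor that IFIT1 and IFIT2 bind, 3 were higher and 1 was lower, with a median of 0.09, and the share of higher genes was near the 23.5% of all genes tested. EIF3C, a subunit that IFIT2 contacts, was at 0.47 (SE 0.08), EIF3G at 0.42 and EIF3F at 0.41. EIF3E, the subunit that human IFIT1 contacts, was at -0.01 (SE 0.07, edgeR adjusted p = 0.886). EIF3J, a loosely held subunit, was the 1 lower gene, with 33.5 and 34.9 CPM in the knockdown and 76.1 and 68.8 CPM in NC (log2 fold change -1.08, SE 0.09).

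**Figure D5:**
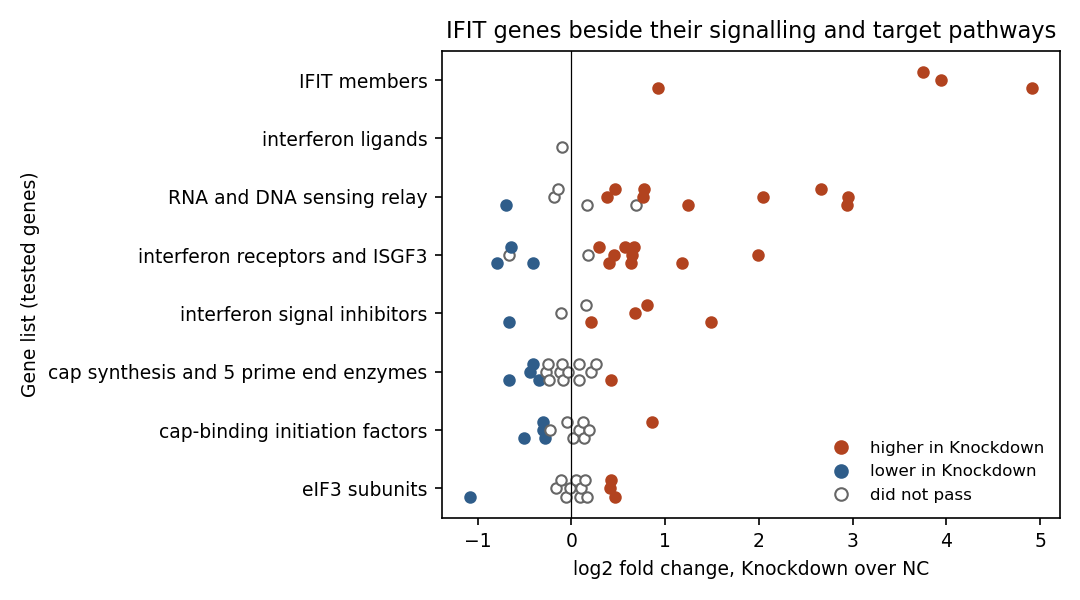
log2 fold change, Knockdown over NC, of the IFIT members and of the tested genes in 7 pathway lists; each point is 1 gene, filled where the gene passed an adjusted p of 0.05 and open where it did not. IFIT1, IFIT2 and IFIT3 lie to the right of every gene of the lists, whose highest values are IRF7 at 2.95 and IFIH1 at 2.94.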

How the data were processed

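The deposited file holds raw counts, 1 row a symbol and 1 column a library, from Ion Proton sequencing per the labels' protocols. The submitters' processing notes name the build GRCh37. Aligner, counter, annotation and strandedness: not given in the sources used here. Groups came from the sample titles. The table was fitted whole in R 4.3.3 by the robust quasi-likelihood test of edgeR 4.0.16 (TMM scaling, filterByExpr, Benjamini-Hochberg at 0.05; biological coefficient of variation 6.64%), a script tested on simulated data. SE came from the fold change and its F statistic. Replicates differed beyond sampling noise (chi-square per gene 3.42 for the knockdown, 3.72 for NC). Lengths and coordinates are from GENCODE 29 and promoters from RefSeq, both on GRCh38 and joined by symbol, since the counts carry no coordinates. Members and lists were chosen with earlier results of these data known. Named by rule were the members, IFIT1B, SBF2-AS1, the 5 most alike genes per member, neighbours in fold order and at the locus, and up to 4 called genes of smallest p per list. Further list genes were picked knowing their values. Alternatives were other scalings, filters, tests (DESeq2 1.42.0, limma-voom 3.58.1), lengths and motifs, and each library left out. Not every gene counted in the lists is reported by name.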

Additional observations from a re-analysis of the deposited data

How the results depend on the processing

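Over all settings of the fit (scalings, filters, tests and left-out libraries) the members' log2 fold change, a description since these libraries chose the members, ran from 4.75 to 5.06 for IFIT1, from 3.87 to 3.95 for IFIT2, from 3.60 to 3.91 for IFIT3 and from 0.76 to 1.05 for IFIT5, whose lowest value came without Knockdown-732. With 1 library left out, the lone library of its group is assumed to vary like the others; SBF2-AS1 then ran from -2.14 to -1.71. Lower genes of the sensing relay numbered 2 with library size only, 0 in DESeq2 and 0 to 1 with a library left out, against 1. Lower eIF3 genes numbered 2 with library size only and 1 to 3 with a library left out, against 1. Higher cap-binding factors numbered 1 to 2 with a library left out, against 1. Per kilobase of the longest annotated transcript, IFIT2 had 16.8 CPM in the knockdown and 1.09 CPM in NC, and IFIT3 had 37.5 CPM in the knockdown. Per kilobase of the transcript numbered first, IFIT1 had 77.0 CPM in the knockdown and 2.57 in NC, IFIT2 had 17.8 in the knockdown and 1.16 in NC, and IFIT3 had 38.1 in the knockdown. The looser motif AANNGAAA was in 22.8% of all promoters. No paired analysis was possible because the libraries of the groups share no replicate number.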

Other observations

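Of the 16120 genes tested, 10176 had a promoter in the RefSeq table, and 43 of these, IFIT1, IFIT3 and IFIT5 among them, held the interferon-response letters (GAAA, any 2 bases, GAAA) at least 2 times in 1 promoter. In a description made after the values were seen and not tested, 31 of the 43 (72.1%) were higher and 4 (9.30%) were lower in the knockdown, with a median log2 fold change of 0.75. IFIT1, IFIT3 and IFIT5 are among the 31, which the choice of members fixes, and the share and median were not computed without them. Of the 364 genes with 1 match 31.6% were higher and 24.7% lower, and of the 9769 with 0 matches 24.98% were higher and 25.5% lower. IFIT5, with 3 matches, had a lower fold change than IFIT1 and IFIT3, with 2 each.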
